A study of Mus musculus with 9 samples.

Results

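Described here are 8 genes of the interleukin-1 (IL-1) family in mouse stromal cells: the cytokine genes Il33, Il1a, Il1b and Il18, the antagonist gene Il1rn, the receptor genes Il1r1 and Il1rl1, and the gene of their shared accessory chain, Il1rap. They were chosen by name, and all 8 are among the 26214 genes of the deposited table. Each of the 8 had a value above 0 in at least 1 compared library, and 7 passed the filter on low values, a mean of at least 10 over the 8 libraries compared. Il1a did not pass. Il1b and Il1rn passed only through the injured group where they are high, so for these genes some difference between groups was built in.

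All animals were male C57BL/6J mice aged 8 to 12 weeks, and cells were taken on day 1 after 80 µL were injected into the quadriceps. Adipose stromal cells (ASCs, 3 libraries) came from subcutaneous fat of mice given NaCl, and fibro-adipogenic progenitors (FAPs, 2 libraries), the mesenchymal cells between muscle fibers, from the quadriceps of mice given NaCl. The paper describes triplicates for each condition, but only 2 libraries of FAPs were at hand. Injured FAPs (3 libraries) came from quadriceps given 50% glycerol, which destroys myofibers. Magnetic sorting removed cells with CD45 or CD31, the surface markers of leukocytes and endothelium, and then kept cells with Sca-1. Each library pooled cells of 3 animals, so every p-value measures the spread between these pools, which may be technical, and not the spread between animals. A single library of CD31+CD45+ cells from injured muscle entered no test and is used as a check on carried-over cells. The labels do not say whether its cells bear both markers or either.

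Values are deposited normalized values, which are whole reads divided by a size factor of the library. The 8 compared libraries held 24052508 to 27481573 reads on genes, and the CD31+CD45+ library 13091077. The floor set for a gene listed at 0 is 3 reads in a library, worth values from 2.29 to 4.71. Intervals and floors cover counting error only. ASCs were compared with FAPs (the tissue comparison), injured FAPs with FAPs (the injury comparison) and injured FAPs with ASCs (the cross comparison). To be called higher or lower, a gene needed an adjusted p under 0.05 in limma (Benjamini-Hochberg over 13601 tested genes) and a log2 fold change of more than 0.58 in either direction.

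Interleukin-33 is an alarmin: it is stored in the nucleus of stromal, endothelial and epithelial cells and reaches other cells when its holder is damaged. Its receptor ST2, the product of Il1rl1, and the IL-1 receptor IL1R1 each pair with IL1RAP and then signal through MYD88 and the IRAK kinases to NF-kB. IL1R1 is occupied without signalling by the antagonist IL1RN, IL1R2 is a decoy that binds IL-1 without a signalling domain, and in fat and regenerating muscle interleukin-33 is known for acting on innate lymphoid cells and regulatory T cells.

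The labels were checked against markers. Pdgfra, the receptor that defines FAPs, stood at 10837, 15083 and 13043 in ASCs, 17754 and 17757 in FAPs, 23649, 25268 and 23236 in injured FAPs and 119 in the CD31+CD45+ library. Ly6a, which encodes Sca-1, ranged from 36777 to 49855 in ASCs and from 21308 to 24855 in injured FAPs, with 16542 and 10823 in FAPs and 17672 in the CD31+CD45+ library, above both FAP libraries. All 7 stromal markers were above 0 in every library, and in the injury comparison Ly6a and Pdpn of them were called higher and Cd34, Dcn and Col1a1 lower. Of the 7, limma called 5 higher and 0 lower in the tissue comparison and 1 higher and 5 lower in the cross comparison. Over all tested genes higher and lower calls were 23.4% and 23.8% in the tissue, 24.9% and 27.7% in the injury and 25.0% and 25.8% in the cross comparison. The 8 leukocyte markers were each at 0 in both FAP libraries. They summed to 40.8, 36.2 and 21.3 in ASCs, 239, 1270.0 and 235 in injured FAPs and 7620.0 in the CD31+CD45+ library. Injured FAP replicate 2 stood apart from the other injured libraries, with Laptm5, its most abundant leukocyte marker, at 426. The 10 endothelial markers summed to 7317, 5908 and 7717 in ASCs, 6726 and 4573 in FAPs, 2213, 2269 and 1827 in injured FAPs and 348300 in the CD31+CD45+ library, and Tek led the list in ASCs and FAPs and Cdh5 elsewhere. Tek alone stood at 5986, 4841 and 6700 in ASCs, so their sums rest mostly on Tek and do not rank the groups. The median endothelial marker reached 0.11% to 0.19% of its CD31+CD45+ level across ASC libraries, the lowest of the stromal groups. FAP replicates 1 and 2 had 0.94% and 0.35% on this measure, and the 3 injured libraries 0.45%, 0.61% and 0.34%. Emcn, Vwf, Cldn5 and Plvap were at 0 in both FAP libraries. Pecam1 was at 195 in FAP replicate 1 (205 reads) and at 0 in FAP replicate 2, further apart than counting error gives. Floors set for a 0 in FAPs cover counting error only and carry that doubt. The 6 smooth muscle and pericyte markers summed to 1623, 1092 and 1360.0 in ASCs, 21290 and 18930 in FAPs, 9849, 9448 and 9830 in injured FAPs and 80740 in the CD31+CD45+ library, with none at 0 and Rgs5 leading in FAP replicate 1. Their part in the low Il33 and Il1rl1 values of FAPs was not tested. In such bulk RNA, fewer cells of a type and less RNA per cell cannot be told apart.

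Of the tested members, Il33, Il1r1, Il1rl1, Il1rap and Il18 were called higher in ASCs than in FAPs. In the injury comparison Il33, Il1r1 and Il1rl1 were called higher, and in the cross comparison Il1r1, Il1rap and Il18 were called lower. Il1b and Il1rn were called higher in injured FAPs in both, but as the filter admitted them through that group, these calls are not counted with the others and no share or median over the members is given. In both comparisons with FAPs limma called 0 of the 5 others lower, and the count was also 0 at an unadjusted p and by edgeR and DESeq2. Over all tested genes 23.4% were called higher and 23.8% lower in the tissue comparison, 24.9% and 27.7% in the injury comparison and 25.0% and 25.8% in the cross comparison, with median log2 fold changes of 0.0049, −0.051 and 0.021. The comparisons share libraries, so their calls are not independent of each other.

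Scaling bears on these splits. Scaling to total reads, chosen after seeing the data, moved the median gene by −0.56 in the tissue comparison, 0.13 in the injury comparison and 0.69 in the cross comparison, and a common 75th percentile moved it by −0.21, −0.094 and 0.11. With total reads 20.1%, 54.9% and 81.3% of called genes were higher, and with the 75th percentile 37.2%, 41.8% and 56.1%, in place of 49.6%, 47.4% and 49.3%. Without Il1b and Il1rn, the members called against FAPs were the same under each of these scalings and under quantile normalization. In the cross comparison Il1rl1 was also called higher under all 3, Il33 with total reads and quantile normalization, and Il1rap was no longer called lower with total reads.

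**Figure D1:**
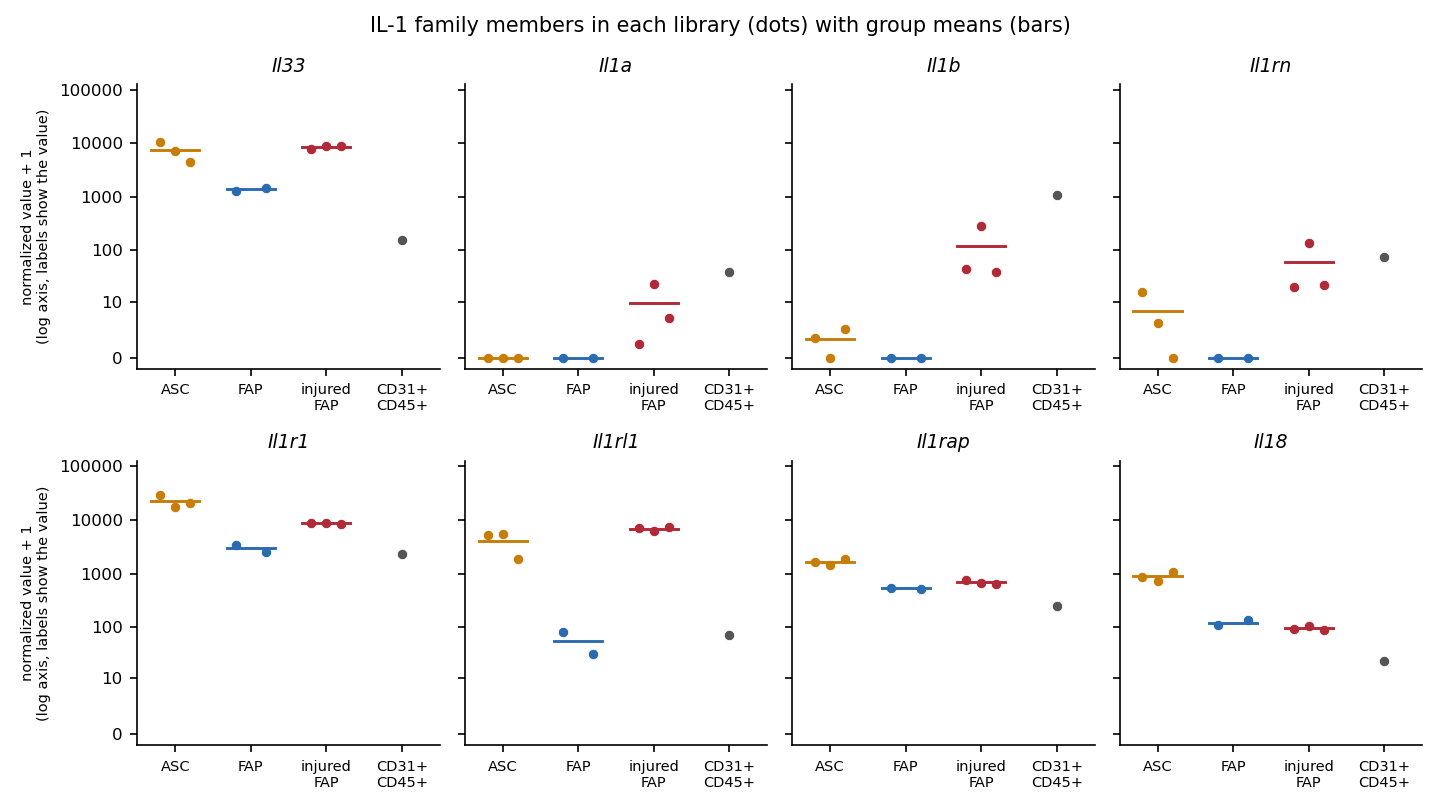
Normalized value of each member (log axis of value + 1) in the 3 ASC, 2 FAP, 3 injured FAP and 1 CD31+CD45+ libraries, with a dot per library and a bar at the mean of each replicated group. Il33 and Il1rl1 are low in FAPs alone among the stromal groups, Il18 is high in ASCs alone, and Il1a, Il1b and Il1rn stand highest among the stromal libraries in injured FAP replicate 2.

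Il33 encodes the alarmin itself and lies on the plus strand of chromosome 19 (chr19:29925114-29960718, GRCm38). Its normalized value was 10499, 7303 and 4501 in ASCs, 1322 and 1443 in FAPs, 7859.5, 8852 and 9150.3 in injured FAPs and 154 in the CD31+CD45+ library. Both FAP libraries lay below every ASC and injured FAP library, while the ASC range enclosed all 3 injured values. Group means (± SD) were 7434 ± 3002 in ASCs (n = 3), 1382 ± 85.9 in FAPs (n = 2) and 8621 ± 676 in injured FAPs (n = 3). Il33 rose in injured FAPs over FAPs by a log2 fold change of 2.64 (SE 0.27, adjusted p = 1.5e-05, limma with Benjamini-Hochberg), a ratio of means of 6.24. It was also higher in ASCs than in FAPs, by 2.34 (SE 0.27, adjusted p = 4.1e-05, limma with Benjamini-Hochberg), in 3 of 3 ASC libraries.

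Between injured FAPs and ASCs Il33 was not called, with a log2 fold change of 0.29 (SE 0.24, adjusted p = 0.298, limma with Benjamini-Hochberg). The value moved with the ASC libraries: it was 0.59 without ASC replicate 1, where it was called, and −0.026 without ASC replicate 3. It was also called with quantile normalization (0.77) and with total reads (0.99), and its adjusted p ranged from 0.00214 to 0.895 over the alternatives. The stromal libraries held 29.3 to 68.3 times the Il33 value of the CD31+CD45+ library in ASCs, 8.59 and 9.38 times in FAPs and 51.1 to 59.5 times in injured FAPs. Endothelial cells are a known source of interleukin-33, and Il33 was 154 in the library where the endothelial markers summed to 348300. The part of endothelial cells in the stromal Il33 values was not tested.

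Il33 and Il1rl1 are the ligand and receptor that were both low in FAPs, and the sequences before their start sites are shown to set them side by side. Each is the 250 bases upstream of a RefSeq start site (GRCm38.p6, plus strand, 5′ to 3′). These are chr19:29924863-29925112 and chr19:29945540-29945789 for Il33, and chr1:40429320-40429569 and chr1:40439379-40439628 for Il1rl1. All 8 members had a RefSeq promoter.
Il33 start 1: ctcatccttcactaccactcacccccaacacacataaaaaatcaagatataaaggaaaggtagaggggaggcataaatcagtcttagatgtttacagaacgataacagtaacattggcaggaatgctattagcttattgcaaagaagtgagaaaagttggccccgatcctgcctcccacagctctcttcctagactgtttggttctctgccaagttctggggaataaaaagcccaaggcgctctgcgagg
Il33 start 2: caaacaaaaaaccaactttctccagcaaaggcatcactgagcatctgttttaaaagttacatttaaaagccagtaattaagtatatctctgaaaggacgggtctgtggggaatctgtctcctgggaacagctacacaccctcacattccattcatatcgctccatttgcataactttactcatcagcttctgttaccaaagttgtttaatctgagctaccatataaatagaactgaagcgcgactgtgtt
Il1rl1 start 1: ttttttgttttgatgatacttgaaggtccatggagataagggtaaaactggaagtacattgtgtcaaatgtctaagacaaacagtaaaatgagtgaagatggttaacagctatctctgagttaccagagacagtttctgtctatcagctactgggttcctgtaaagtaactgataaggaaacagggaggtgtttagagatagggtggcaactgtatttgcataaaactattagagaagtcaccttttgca
Il1rl1 start 2: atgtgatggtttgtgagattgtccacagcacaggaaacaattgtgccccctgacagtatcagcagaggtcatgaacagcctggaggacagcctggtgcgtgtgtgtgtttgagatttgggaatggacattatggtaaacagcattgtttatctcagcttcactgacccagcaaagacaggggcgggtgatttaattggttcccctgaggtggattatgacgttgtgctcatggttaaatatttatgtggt
Both strands were searched for an NF-kB type motif (GGANTTTCC), held by 1.07% of 32851 such promoters, and an AP-1 type motif (TGANTCA), held by 6.75%. Capitals would mark a match, and these 4 windows hold none.

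Il1rl1 encodes ST2, the receptor of interleukin-33, and lies in the receptor cluster of chromosome 1 (chr1:40429570-40465415, GRCm38, plus strand). The normalized value in each library was 5167, 5359.5 and 1850.4 in ASCs, 78.9 and 30.1 in FAPs, 7120.4, 6089 and 7529.5 in injured FAPs and 70.6 in the CD31+CD45+ library. Every injured FAP library lay above every ASC library, and both lay far above FAPs, which were near the CD31+CD45+ level. The ratio of means was 127 for injured FAPs over FAPs and 75.7 for ASCs over FAPs. The log2 fold change was 7.11 in the injury comparison (SE 0.46, adjusted p = 1.0e-06, limma with Benjamini-Hochberg). It was 7.79 without FAP replicate 1 and 6.43 without FAP replicate 2. In the tissue comparison it was 6.22 (SE 0.46, adjusted p = 2.27e-06, limma with Benjamini-Hochberg), with 6.90 and 5.54 without FAP replicates 1 and 2.

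For Il1rl1 3 of 3 injured libraries exceeded 3 of 3 ASC libraries, which is no test of a difference. For injured FAPs against ASCs its log2 fold change was 0.89 (SE 0.41) and was not called (adjusted p = 0.0793, limma with Benjamini-Hochberg). It was called with quantile normalization (1.27), the 75th percentile (1.00), total reads (1.59), without ASC replicate 1 (1.13) and without ASC replicate 2 (1.15). Without ASC replicate 3, whose value of 1850.4 is the lowest of the ASCs, it was 0.39. The adjusted p ranged from 0.00429 to 0.312 over the alternatives. Gene counts cannot separate the membrane form of ST2 from the soluble decoy form made from the same gene, nor tell which start site was used.

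Mast cells and innate lymphoid cells carry ST2, so 8 of their markers were summed. They gave 139.6, 68.0 and 99.2 in ASCs, 15.2 and 8.47 in FAPs, 22.8, 64.3 and 13.7 in injured FAPs and 1190.0 in the CD31+CD45+ library. Gata3 was the most abundant in ASCs and FAPs and Kit in injured FAPs. The mast cell markers Cpa3, Kit, Ms4a2, Mcpt4 and Tpsb2 were at 0 in both FAP libraries. In injured FAPs Kit was 11.8, 17.0 and 11.4, Tpsb2 1.57, 16.3 and 0, Mcpt4 2.35, 9.30 and 0 and Cpa3 1.57, 5.42 and 0. Ms4a2 was at 0 in all 3 injured libraries, but had only 3 reads in the CD31+CD45+ library. Il1rl1 was 86.2 to 107 times higher in injured FAPs than in the CD31+CD45+ library. The part of these cells in the Il1rl1 values was not tested.

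**Figure D2:**
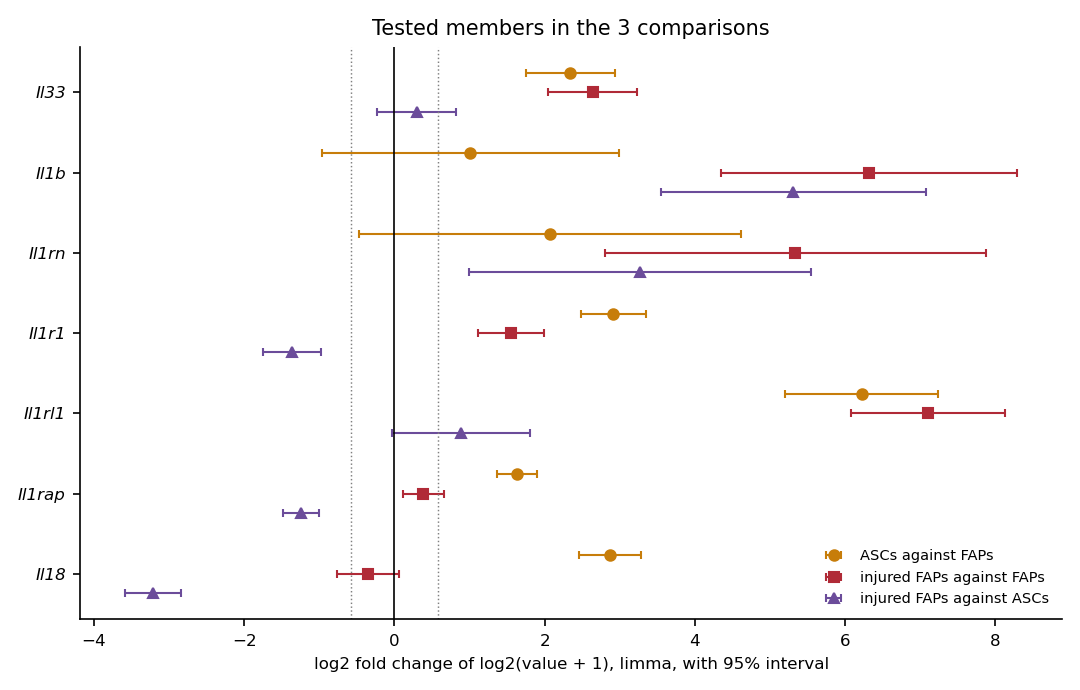
Log2 fold change of each tested member with its 95% interval (limma on log2(value + 1)) in the 3 comparisons, with dotted lines at the fold threshold of 0.58. Among the members read in FAPs, Il1rl1 has the largest fitted differences from FAPs. The values of Il1b and Il1rn against FAPs rest on 0 in both FAP libraries and are no bound, and the Il33 value for injured FAPs against ASCs turns to −0.026 without ASC replicate 3.

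Il1rap encodes the accessory chain that both ST2 and IL1R1 need for signalling (chr16:26581704-26730117, GRCm38, plus strand). Normalized values were 1629.6, 1472 and 1828 in ASCs, 536 and 521 in FAPs, 755, 673 and 651 in injured FAPs and 245 in the CD31+CD45+ library. The 3 stromal groups did not overlap, with ASCs highest and FAPs lowest. Il1rap was higher in ASCs than in FAPs by a log2 fold change of 1.63 (SE 0.12, adjusted p = 2.19e-06, limma with Benjamini-Hochberg). In the injury comparison the value was 0.39 (SE 0.12, adjusted p = 0.0160, limma with Benjamini-Hochberg), under the fold threshold. It was lower in injured FAPs than in ASCs, with a log2 fold change of −1.24 (SE 0.11, adjusted p = 3.7e-06, limma with Benjamini-Hochberg), and with total reads this was −0.54 and under the fold threshold. The ratio of means of injured FAPs over FAPs was 1.31 for Il1rap, against 127 for Il1rl1.

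Il1r1 encodes the signalling receptor of IL-1 alpha and IL-1 beta (chr1:40225080-40317257, GRCm38, plus strand). Libraries gave normalized values of 29411, 17613 and 21017 in ASCs, 3391 and 2549 in FAPs, 8724, 8749.6 and 8406 in injured FAPs and 2335 in the CD31+CD45+ library. The 3 stromal groups did not overlap, and injured FAPs lay between FAPs and ASCs. Against FAPs the log2 fold change was 1.55 in injured FAPs (SE 0.19, adjusted p = 6.26e-05, limma with Benjamini-Hochberg) and 2.91 in ASCs (SE 0.19, adjusted p = 1.2e-06). It was −1.36 in the cross comparison (SE 0.17, adjusted p = 6.04e-05, limma with Benjamini-Hochberg), with 3 of 3 injured libraries below 3 of 3 ASC libraries. FAPs held 1.45 and 1.09 times the Il1r1 value of the CD31+CD45+ library, and injured FAPs 3.60 to 3.75 times.

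Il1r2, the decoy receptor, is no member of the 8 but lies next to Il1r1 and competes for the same ligands. Its normalized value was 13146, 11610.4 and 15314 in ASCs, 290.0 and 207 in FAPs, 148, 152 and 140.3 in injured FAPs and 81.6 in the CD31+CD45+ library. ASCs were far above both muscle groups, and injured FAPs lay below FAPs. The log2 fold change was 5.75 in the tissue comparison (SE 0.16, adjusted p = 8.81e-09, limma with Benjamini-Hochberg) and −6.49 in the cross comparison (SE 0.14, adjusted p = 1.69e-09). In the injury comparison it was −0.74 (SE 0.16, adjusted p = 0.00212, limma with Benjamini-Hochberg), and −0.50 and not called without FAP replicate 1. The Il1r1 value divided by the Il1r2 value, compared between libraries only, was 2.24, 1.52 and 1.37 in ASCs, 11.7 and 12.3 in FAPs and 59.1, 57.6 and 59.9 in injured FAPs. Signalling receptor RNA was highest relative to decoy RNA in injured FAPs, without overlap between the groups.

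Il1r2, Il1r1, Il1rl2, Il1rl1, Il18r1 and Il18rap form a cluster of 6 receptor genes within 478 kb (chr1:40074079-40551705, GRCm38). Only 137 bases lie between Il1rl1 and Il18r1, and 7353 between Il1r1 and Il1rl2. These neighbours nevertheless differed. Il1rl2, the receptor for interleukin-36, was 16579, 14453 and 16516 in ASCs, 1474 and 1250.3 in FAPs, 1800, 1693 and 1754 in injured FAPs and 40.8 in the CD31+CD45+ library. Il18r1, the ligand-binding chain for interleukin-18, was 568, 429 and 943 in ASCs, 24.7 and 42.3 in FAPs and 3.14, 2.32 and 1.53 in injured FAPs. Beside Il1rl1, which was highest in injured FAPs, its neighbour Il18r1 was lowest there, below both FAP libraries. The Il18r1 log2 fold change was −3.35 in the injury comparison (SE 0.39, adjusted p = 3.76e-05, limma with Benjamini-Hochberg) and −7.55 against ASCs (SE 0.35, adjusted p = 6.41e-08). Its injured values rest on 4, 3 and 2 reads, so the size of these folds is uncertain, and over the alternatives they ran from −3.83 to −1.98 and from −8.12 to −5.91. Il18rap, the second chain of that receptor, was 0 to 2.51 in ASCs, 0 in both FAP libraries and 5.49, 5.42 and 10.7 in injured FAPs.

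**Figure D3:**
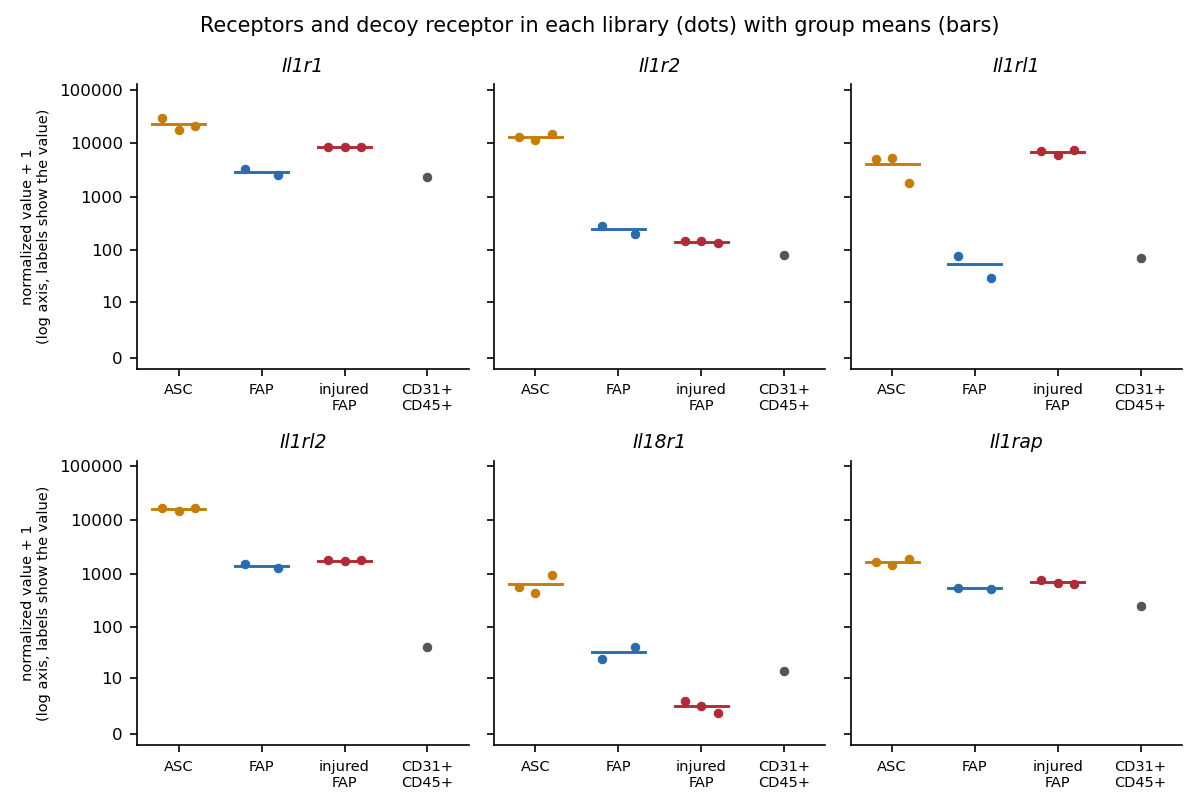
Normalized value of the receptor genes and the decoy Il1r2 (log axis of value + 1), with a dot per library and a bar at the mean of each replicated group. Il1r2, Il1rl2 and Il18r1 are high in ASCs alone, whereas Il1rl1 is high in both ASCs and injured FAPs.

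Il18 encodes interleukin-18, which is made as a precursor and is activated by caspase-1 (chr9:50554827-50581840, GRCm38, plus strand). Normalized values came to 860.2, 735 and 1078 in ASCs, 107 and 133 in FAPs, 90.2, 102 and 89.2 in injured FAPs and 22.0 in the CD31+CD45+ library. ASCs lay above both muscle groups, and every injured library lay below both FAP libraries. The log2 fold change was 2.87 in the tissue comparison (SE 0.19, adjusted p = 9.72e-07, limma with Benjamini-Hochberg) and −3.22 in the cross comparison (SE 0.17, adjusted p = 1.25e-07). The difference of −0.35 between injured FAPs and FAPs was not called (SE 0.19, adjusted p = 0.124, limma with Benjamini-Hochberg). Epithelial cells also make Il18, and 6 epithelial markers summed to 1067, 1.13 and 314 in ASCs, with Krt8 the most abundant at 484 in ASC replicate 1 and at 0 in replicate 2. Injured FAPs gave sums of 5.34 to 8.63, and FAPs 1.90 and 1.88. ASC replicate 2, where Epcam, Krt5, Krt14, Krt8 and Krt18 were at 0, held 735 of Il18. The part of epithelial cells in the Il18 values was not tested.

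Il1b encodes IL-1 beta, the secreted inflammatory cytokine of activated myeloid cells (chr2:129364570-129371139, GRCm38, minus strand). In normalized values it was 1.32, 0 and 2.51 in ASCs, 0 in both FAP libraries, 43.9, 283 and 38.9 in injured FAPs and 1103 in the CD31+CD45+ library. Every injured library lay above every other stromal library, and replicate 2 lay far above the other injured libraries. The mean in injured FAPs was at least 42.7-fold higher than the floor of FAPs, and at least 14.5-fold without injured FAP replicate 2. Against ASCs, with 472 reads in injured FAPs and 3 in ASCs, the ratio of pooled reads was 99.0 (95% interval 33.7 to 482, counting error only). That interval leaves out the spread between libraries. The ratio was 33.6 without injured FAP replicate 2, 63.2 without ASC replicate 2 and 200 without ASC replicate 3. The fitted log2 fold changes, 6.32 against FAPs and 5.31 against ASCs, depend on the count added before the log, and no p is given because Il1b was tested only through its injured values. ASCs and FAPs overlapped. With 3 reads in ASCs and 0 in FAPs, their fitted log2 fold change of 1.01 shows neither a difference nor a lack of one.

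Il1rn encodes the antagonist that occupies IL1R1 (chr2:24336853-24351494, GRCm38, plus strand). Its normalized values were 15.8, 3.40 and 0 in ASCs, 0 in both FAP libraries, 19.6, 138 and 22.1 in injured FAPs and 73.8 in the CD31+CD45+ library. The injured libraries lay above the other stromal libraries, ASC replicate 1 came close to them, and of the injured libraries only replicate 2 exceeded the CD31+CD45+ library. Injured FAPs were at least 21.0-fold above the floor of FAPs, and at least 7.32-fold without injured FAP replicate 2. Against ASCs the ratio of pooled reads was 9.73 (95% interval 5.78 to 17.7, counting error only). It was 3.40 without injured FAP replicate 2 and 33.5 without ASC replicate 1, both outside that interval, which leaves out the spread between libraries.
The promoter of 1 Il1rn start site (chr2:24336610-24336859, GRCm38.p6, plus strand) is shown because it holds the AP-1 type motif in capitals, 141 bases before the start.
Il1rn start 1: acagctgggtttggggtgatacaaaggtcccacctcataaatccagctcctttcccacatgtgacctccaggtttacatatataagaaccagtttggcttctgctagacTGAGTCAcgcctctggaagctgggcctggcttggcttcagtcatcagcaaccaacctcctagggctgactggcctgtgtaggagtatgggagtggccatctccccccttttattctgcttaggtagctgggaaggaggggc
For Il1rn in injured FAPs the fitted log2 fold changes were 5.34 against FAPs and 3.27 against ASCs, given without a p for the same reason as for Il1b. The call against ASCs, which is not used here, was lost with DESeq2, without injured FAP replicate 2 (2.38) and without ASC replicate 3 (2.23). ASCs held 15 reads of Il1rn and FAPs 0. The fitted value of ASCs against FAPs was 2.07 and depends on the count added before the log. It ran from 0.69 to 5.69 over the alternatives, 3 of which changed the call, so neither a difference nor a lack of one is read from it.

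Il1a encodes IL-1 alpha, which like interleukin-33 can act as an alarmin, and lies 54598 bases from Il1b (chr2:129299610-129309972, GRCm38, minus strand). It was listed at 0 in all ASC and FAP libraries and at 0.785, 23.2 and 4.58 in injured FAPs, beside 39.2 in the CD31+CD45+ library. Of the 37 reads in injured FAPs, 30 fell in replicate 2. The mean was at least 3.34-fold above the floor of FAPs with that library. Without it the mean was at the floor, and no fold is given. Its promoter also holds the AP-1 type motif, 12 bases before the start, and the promoters of the other members hold neither motif.

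Replicate 2 of the injured FAPs exceeded the mean of replicates 1 and 3 by 8.67 times for Il1a, 6.83 for Il1b and 6.61 for Il1rn. For the other members this ratio was 0.831 to 1.14. The median ratio was 5.64 over the 8 leukocyte markers (4.56 to 7.07), 5.44 over the 8 monocyte and macrophage markers (2.80 to 15.1) and 5.01 over the 4 neutrophil markers with enough reads (1.44 to 7.30). Over the 2 usable mast and innate lymphoid cell markers it was 11.1 (1.47 to 20.7), but the 1 usable lymphocyte marker gave 0.732. The median was 1.15 over the 10 endothelial, 1.00 over the 7 stromal and 1.06 over the 6 smooth muscle markers. The monocyte and macrophage markers summed to 606, 2517 and 518 in injured FAPs, 489 to 559.9 in ASCs, 259.6 and 485 in FAPs and 15970 in the CD31+CD45+ library. In FAPs 6 of these 8 (Adgre1, Csf1r, Lyz2, Fcgr1, Ccr2 and Cd14) were at 0, and Cd68 led the list.

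As a share of the CD31+CD45+ level, Il1b was 3.98%, 25.6% and 3.53% in the 3 injured libraries. The leukocyte markers lay at 1.48% to 5.04%, 7.0% to 24.19% and 1.24% to 5.58%, and the monocyte and macrophage markers at 1.22% to 31.4%, 5.23% to 121% and 0.826% to 20.6%. Il1rn was at 26.6%, 187% and 30.0%, and Il1a at 2.0%, 59.3% and 11.7%. The neutrophil markers summed to 107, 257 and 138 in injured FAPs, with Mmp9 the most abundant, and Ly6g was at 0 in replicate 3 and in the CD31+CD45+ library. The part of leukocytes in the Il1a, Il1b and Il1rn values was not tested. Zeros in a whole group were checked among well-read genes: of 10215 genes with at least 50 in each of the 6 other compared libraries, 6 were at 0 in both FAP libraries (Sele, Plvap, Srgn, Stab1, Cd14 and Mpeg1). The same count was 1 of 10547 for ASCs (Acan) and 0 of 10372 for injured FAPs, so FAPs, with the fewest libraries, had the most.

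Levels of different members can be compared only per kb of exon. In ASCs Il1r1 led with 3564 ± 954 per kb (SD), followed by Il33 with 2576 ± 1040.0, Il18 with 864 ± 169, Il1rl1 with 598 ± 286 and Il1rap with 145 ± 15.7. Il1r1 and Il33 overlapped there, as did Il18 and Il1rl1. In FAPs Il33 (479 ± 29.8 per kb) and Il1r1 (467 ± 93.6) led and overlapped, ahead of Il18 (116 ± 17.3), Il1rap (46.5 ± 0.940) and Il1rl1 (7.91 ± 5.01). In injured FAPs Il33 led with 2987 ± 234 per kb, then Il1r1 with 1356 ± 30.1 and Il1rl1 with 1003 ± 108, none of which overlapped. Below them came Il18 (91.1 ± 7.05), Il1b (63.9 ± 73.1), Il1rap (61.0 ± 4.82), Il1rn (10.8 ± 12.2) and Il1a (4.83 ± 6.09). Of these, Il1b overlapped with Il18, Il1rap and Il1rn, and Il1rn with Il1a. Il18 and Il1rap did not overlap, but with the longest transcript as length their order was reversed. In the CD31+CD45+ library Il1b led with 579 per kb, ahead of Il1r1 with 367 and Il33 with 53.3.

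The genes whose pattern over the 8 libraries was most like each member are given by Pearson's r on the log values, as a description. For Il33 they were Llph (0.998), Rpf1 (0.997) and Rpl7l1 (0.990), and for Il1rl1 the ribosomal protein genes Rps18 (0.998), Rpl35 (0.998) and Rpl28 (0.997). Il1r1 had Clint1 (0.996) among them. For Il1rap they were Samhd1, Galnt16 and Mcl1 (0.995 to 0.996), and for Il18 Lrrc17, Mmp27 and Tpst1 (0.996 to 0.997). For Il1b they were Selenoh, Cep85 and Ywhaq (0.968 to 0.970) and Il1rn had Knop1 (0.976) and Mrps2 (0.973) among them. Such r values may reflect the group means, which was not tested. Of 10592 genes compared, 299 reached 0.95 with Il33 and 343 with Il1rl1. The pattern is shared and the size is not: Rps18 had means of 8194 in ASCs, 3421 in FAPs and 9363 in injured FAPs, a far smaller range than that of Il1rl1.

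The 5 other ligands of the family were all untested, with Il1f6, Il1f8, Il1f5 and Il1f10 at 0 in all 9 libraries and Il1f9 at 1.57, 1.55 and 0 in injured FAPs. Among the 8 other receptors and decoys 4 were tested. Higher and lower calls among them were 3 and 0 in the tissue comparison (median log2 fold change 3.87), 0 and 2 in the injury comparison (−0.19) and 0 and 3 in the cross comparison (−4.83). Over all tested genes the shares were 23.4% and 23.8%, 24.9% and 27.7%, and 25.0% and 25.8%. Il18bp, the soluble trap for interleukin-18, was not called by limma with the 3 group means on the deposited values of all 8 libraries, and was called higher in both comparisons with FAPs by DESeq2, with quantile normalization and without ASC replicate 3. It was also called at an unadjusted p and by edgeR in the tissue comparison, and without ASC replicate 2 and with only the groups compared in the injury comparison. Apart from Il18bp, the counts of 0 from limma were also 0 at an unadjusted p and by edgeR and DESeq2. Sigirr, an inhibitory receptor, was 25.7 and 19.8 in FAPs, under 5 in the other stromal libraries and 1361 in the CD31+CD45+ library.

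The signalling list held 17 genes from Myd88 to the IKK kinases, all tested. Higher and lower calls were 5 and 2 in the tissue comparison (median 0.23), 2 and 5 in the injury comparison (−0.14) and 0 and 7 in the cross comparison (−0.20), beside 23.4% and 23.8%, 24.9% and 27.7%, and 25.0% and 25.8% of all tested genes. With total reads they were 4 and 5, 3 and 3, and 6 and 5. They were 5 and 4, 0 and 5, and 0 and 7 with the 75th percentile and 5 and 3, 1 and 5, and 0 and 7 with quantile normalization. The 0 was also 0 at an unadjusted p and by edgeR and DESeq2. In the cross comparison, however, Irak2 was called higher without ASC replicate 3 and Tab1 without ASC replicate 2. In the injury comparison the lower call of Tab1 was lost in 8 of 20 alternatives. Among these were no filter, total reads, and leaving out ASC replicate 3 or any injured FAP replicate. The higher call of Chuk was lost there in 4 of 20: quantile normalization, the 75th percentile, the replicate block and without injured FAP replicate 3. Irak3, which restrains signalling below the IL-1 and Toll-like receptors, was 17099, 11744 and 12937 in ASCs, 1941 and 1630 in FAPs and 1570, 1441 and 1262 in injured FAPs. ASCs lay far above both muscle groups, with a log2 fold change of 2.95 against FAPs (SE 0.16, adjusted p = 3.57e-07, limma with Benjamini-Hochberg). Injured FAPs against FAPs was −0.33 and not called. Myd88, the adaptor, was higher in ASCs than in FAPs (1.62) and its 0.49 in the injury comparison was under the fold threshold except with total reads (0.62).

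Of 19 genes of cytokine processing and release, 13 were tested. Higher and lower calls were 6 and 1 in the tissue comparison (median 0.54), 6 and 1 in the injury comparison (0.34) and 3 and 3 in the cross comparison (0.20), beside the same shares of all tested genes as for the signalling list. With total reads they were 2 and 3, 6 and 0, and 7 and 2. With the 75th percentile they were 3 and 2, 5 and 1, and 4 and 3. Casp1, which activates IL-1 beta and interleukin-18, was 209, 253 and 276 in ASCs, 47.5 and 32.9 in FAPs and 45.5, 44.2 and 35.8 in injured FAPs. Like Il18 it was high in ASCs alone among the stromal groups (2.60 against FAPs, 0.071 and not called in injured FAPs). In the CD31+CD45+ library Casp1 was 143, above both muscle groups, whereas Il18 was 22.0. Casp4, the sensor of cytosolic lipopolysaccharide, was 156 and 124 in FAPs, 433 to 512 in injured FAPs and 2046 to 2200.0 in ASCs. Ripk3 and Mlkl, which carry out necroptosis, a form of lysis that frees alarmins, rose in injured FAPs over FAPs. Ripk3 was 231 and 299 in FAPs and 836, 853 and 828 in injured FAPs (log2 fold change 1.67, SE 0.13, adjusted p = 2.79e-06, limma with Benjamini-Hochberg). Mlkl was 296 and 260 in FAPs and 1128, 936 and 1013 in injured FAPs (1.88, SE 0.30, adjusted p = 0.000291, limma with Benjamini-Hochberg). Nlrp3, the inflammasome sensor, was 6.59, 4.53 and 2.51 in ASCs, 0 in FAPs, 5.49, 50.4 and 6.10 in injured FAPs and 254 in the CD31+CD45+ library. The high injured replicate was the same as for Il1b, and the other 2 overlapped with ASCs.

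Genes known to be induced by IL-1 in stromal cells were a list of 23, of which 22 were tested and Ccl20 was not. Mmp13 passed the filter only through the injured group and was left out, after its values were seen, of the counts and medians, which cover the 21 others. In the tissue comparison 20 were higher and 0 lower (median 2.38), beside 23.4% and 23.8% of all tested genes, and the unadjusted p gave 20 and 1, edgeR and DESeq2 20 and 0. With total reads they were 17 and 1, with the 75th percentile 18 and 1. In the injury comparison 20 were higher and 0 lower (median 2.99), beside 24.9% and 27.7%, and the counts were the same at an unadjusted p, by edgeR and DESeq2 and under the 3 scalings. Between injured FAPs and ASCs 5 were higher and 10 lower (median −0.60), beside 25.0% and 25.8%, but this flipped to 8 and 6 with quantile normalization and to 9 and 2 with total reads, and was 7 and 7 with the 75th percentile. Without ASC replicate 1 it was 6 and 6, and without injured FAP replicate 2 it was 5 and 6. Lcn2 was not called in the tissue comparison (−1.22) and Ptges not in the injury comparison (−0.31).

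Il6, a cytokine of stroma and leukocytes, was 20777, 19198 and 14928 in ASCs, 1000.3 and 652 in FAPs, 11522, 10246 and 13258 in injured FAPs and 504 in the CD31+CD45+ library. FAPs were low and the other stromal groups high, with a log2 fold change of 3.84 in the injury comparison (SE 0.20, adjusted p = 3.63e-07, limma with Benjamini-Hochberg). Ccl2, which draws monocytes, was 70413, 55798 and 41304 in ASCs, 1079 and 964 in FAPs, 39116, 31059.9 and 38199 in injured FAPs and 301 in the CD31+CD45+ library. Cxcl5, which draws neutrophils, was 1234, 1378 and 217 in ASCs, 8.56 and 42.3 in FAPs, 24537, 25243 and 28574 in injured FAPs and 3.14 in the CD31+CD45+ library. It set injured FAPs apart from ASCs as well as from FAPs, and ASC replicate 3 was the lowest ASC library for Cxcl5 as for Il33 and Il1rl1. Its log2 fold change was 10.32 in the injury comparison (SE 0.76, adjusted p = 2.0e-06, limma with Benjamini-Hochberg), with 9.23 without FAP replicate 1 and 11.41 without FAP replicate 2. Against ASCs it was 5.18 (SE 0.68, adjusted p = 6.99e-05, limma with Benjamini-Hochberg), and 4.32 without ASC replicate 3. Mmp3, a matrix protease, was 17795, 19397 and 13301 in ASCs, 951 and 659 in FAPs, 3900.3, 3902 and 3769 in injured FAPs and 3.14 in the CD31+CD45+ library.

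**Figure D4:**
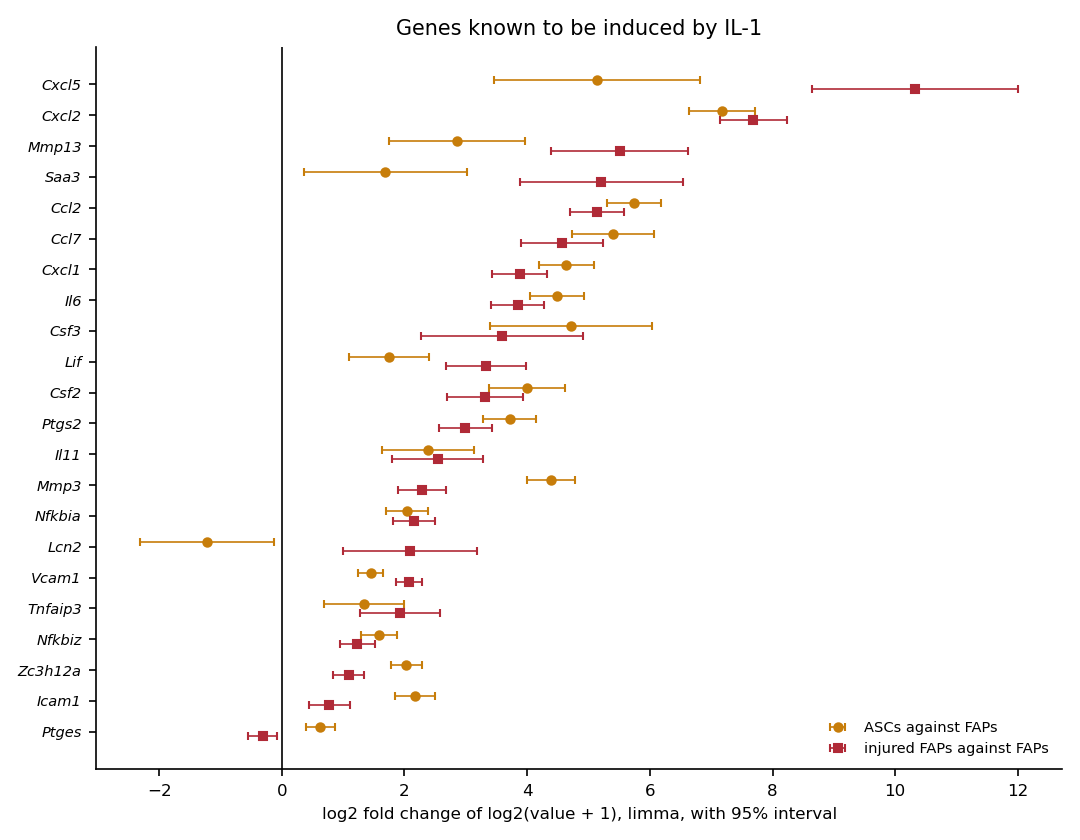
Log2 fold change with its 95% interval (limma on log2(value + 1)) of 22 tested genes known to be induced by IL-1, for ASCs over FAPs (circles) and injured FAPs over FAPs (squares). Apart from Mmp13, all but Lcn2 in ASCs and Ptges in injured FAPs were called higher, 17 of 21 with total reads in ASCs. The Mmp13 values rest on 0 in both FAP libraries and on a filter passed only through the injured group.

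On the interleukin-33 side, 8 partners were listed and 3 tested. Of the 3, 2 were called higher and 0 lower in the tissue comparison, and 3 and 0 in the injury comparison. The cross comparison gave 2 higher and 1 lower (1 and 1 with quantile normalization). Beside these counts, the shares of all tested genes were 23.4% and 23.8%, 24.9% and 27.7%, and 25.0% and 25.8%. The counts of 0 from limma were also 0 at an unadjusted p and by edgeR and DESeq2. Il4ra, the shared receptor chain for interleukins 4 and 13, was 37247, 17765 and 18855 in ASCs, 2081 and 2079 in FAPs, 7614, 8233 and 7262 in injured FAPs and 6163 in the CD31+CD45+ library. Its groups did not overlap, and the log2 fold change was 1.89 in the injury comparison (SE 0.26, adjusted p = 0.000113, limma with Benjamini-Hochberg). Il13ra1, the partner chain, was 1781, 1934 and 1975 in ASCs, 784 and 778 in FAPs and 3283, 3653 and 4014 in injured FAPs, highest in injured FAPs in 3 of 3 libraries (2.22 against FAPs, SE 0.11, adjusted p = 2.96e-07, limma with Benjamini-Hochberg). Tslp, another alarmin, was 88.4 and 70.6 in FAPs and 166, 109 and 145 in injured FAPs. Its log2 fold change of 0.80 was called, but not without either FAP replicate, without injured FAP replicate 1 or 3, with no filter or with the 75th percentile. Of the cytokines that interleukin-33 elicits, Il4 and Il5 were at 0 to 1.13 and Il13 at 0 to 5.27 in the stromal libraries. The sort had removed cells with CD45, so these libraries cannot show whether leukocytes made them. Areg, also listed and untested, was 47.4, 1.13 and 8.79 in ASCs, 3.80 and 0 in FAPs and 1.57, 6.97 and 2.29 in injured FAPs.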

How the data were processed

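RNA sequencing of 9 libraries was read from 1 deposited table, which lists 26214 genes, 6684 of them at 0 in all 9 libraries. Its 2 empty columns were left out, and 0 library columns were left unused. The authors filtered reads with fastq_illumina_filter 0.1, used HISAT2 2.2.1 for alignment to mm10 and featureCounts (Subread 2.0.1) for counting, and ran DESeq2 1.34.0. The deposited values are normalized counts, a signal per gene and library, and 100% of them came out as whole reads recovered after dividing by a size factor (tolerance 0.01). Strand setting, multimapping reads and the scaling are not stated by the authors, so genes with overlapping neighbours carry that doubt. Coordinates and lengths came from GENCODE M21 (24918 genes matched) and promoters from RefSeq.

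Log2(value + 1) was fitted with limma 3.58.1 in R 4.3.3 as 3 group means over 8 libraries, with trend set to true and 5 residual degrees of freedom. The Benjamini-Hochberg adjustment ran over 13601 genes whose mean was 10 or more. Limma called 6416, 7153 and 6909 genes in the tissue, injury and cross comparisons. On recovered reads edgeR 4.0.16 called 6450, 7303 and 7000 and DESeq2 1.42.0 called 6412, 7227 and 6865. The methods were tested on simulated data. The genes named are the members, genes of the pathway and marker lists given in the text, and for each member the 3 genes with the highest Pearson's r among genes with a mean of at least 100. Of the latter, 3 genes are not reported here. Members and lists were chosen with earlier results of these data known, and single genes picked from a list as examples were picked after their values were seen. Alternatives covered the pseudocount, the filter, quantile and 75th percentile scaling, the unadjusted p, a fit of only the groups compared, a replicate block, the tool, and each library left out. Scaling to total reads was chosen after seeing the data. Other data sets of the study were not used here.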

Additional observations from a re-analysis of the deposited data

Results flagged for a closer look

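The CD31+CD45+ library, which no comparison uses, held Il1b at 1103, Il1rn at 73.8 and Il1a at 39.2. These values lie above those of the NaCl libraries of ASCs and FAPs, where Il1b was at most 2.51, Il1rn at most 15.8 and Il1a 0. This library entered no test here.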

How the results depend on the processing

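The following tally includes Il1b and Il1rn, which the filter admitted through the injured group, so it is no measure of stability for them. Over the member results of the 3 comparisons, 398 alternative values kept the direction and call, 11 gained a call, 4 lost a call and 1 changed direction. The last was the Il33 log2 fold change in the cross comparison, which ran from −0.026 without ASC replicate 3 to 0.59 without ASC replicate 1 when 1 library was left out, and reached 0.99 with total reads. With a mean of at least 50 Il1b and Il1rn were no longer tested, which left 3 called members in the injury and the cross comparison. The number of the replicate was also tried as a block, although libraries with the same number were no more alike than others. With the replicate block 5, 3 and 3 members other than Il1b and Il1rn were called in the tissue, injury and cross comparisons, as without it. Il1rn then gained a call in the tissue comparison (2.79), which is not read as a difference. Il18bp was then also called in the tissue and injury comparisons. Leaving out each library in turn gave 5 to 5, 3 to 3 and 3 to 5 called members other than Il1b and Il1rn, 37 to 43, 36 to 41 and 31 to 37 called pathway genes, and 5653 to 6683, 6323 to 7358 and 6582 to 7190 called genes. Without a FAP replicate 1 FAP library remains, and it is assumed to vary like the other groups. The place of Il33 among the members per kb was the same with the longest transcript as length.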
